A study of Mus musculus with 6 samples.

Results

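The Cyp2a and Cyp2b cytochromes of mouse liver are described here by 7 genes, Cyp2a4, Cyp2a5, Cyp2a12, Cyp2a22, Cyp2b9, Cyp2b10 and Cyp2b13, out of 46095 gene symbols in the deposited table. They were chosen by symbol, with the difference between knockout and wild-type libraries already known. That difference is therefore given for them as a description and without p-values. Nothing is read from whether a fit of all genes called them. The libraries came from liver of C57BL/6 mice, labelled hepatocyte, after 26 weeks of high-fat diet, with 3 wild-type libraries and 3 from mice titled ARRB1 knockout. Arrb1 encodes beta-arrestin 1, which binds activated receptors at the cell surface and ends or redirects their signalling, and the series asks how its loss bears on steatohepatitis. All 6 libraries share the diet, and no library from a standard diet was analysed here. The genotype labels of knockout replicates 2 and 3 read ARRB2-/- and ARRB3-/- instead of ARRB1-/-, and the sources used here do not say whether the deletion covered every tissue, the age or sex of the mice, or whether animals were pooled.

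Cytochromes of the CYP2A and CYP2B subfamilies are haem enzymes of the endoplasmic reticulum that use electrons from cytochrome P450 reductase to hydroxylate steroids, drugs and plant compounds. In mouse liver, Cyp2b10 is the classic target of the nuclear receptor CAR, which responds to phenobarbital-like compounds, whereas Cyp2b9, Cyp2b13 and Cyp2a4 are known as female-biased genes that the pulsatile growth hormone of males keeps low through STAT5b. Cyp2a5 is the coumarin hydroxylase and Cyp2a12 a testosterone hydroxylase.

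Apart from Cyp2b10, the genes form pairs of near-identical copies, with 92.7% to 98.4% identity in their coding bases. The bases just before the starts are given for the pairs that are closest there. The 250 bases before the RefSeq start (GRCm38.p6, all on the plus strand of chromosome 7) are shown for the pair Cyp2b9 (chr7:26173159-26173408) and Cyp2b13 (chr7:26061245-26061494) and for the pair Cyp2a4 (chr7:26306942-26307191) and Cyp2a5 (chr7:26835089-26835338), with capitals at the bases that differ within a pair.
Cyp2b9: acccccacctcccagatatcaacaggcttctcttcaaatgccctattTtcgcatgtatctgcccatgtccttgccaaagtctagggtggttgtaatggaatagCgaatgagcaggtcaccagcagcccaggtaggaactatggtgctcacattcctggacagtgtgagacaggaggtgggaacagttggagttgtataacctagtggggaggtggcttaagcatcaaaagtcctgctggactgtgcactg
Cyp2b13: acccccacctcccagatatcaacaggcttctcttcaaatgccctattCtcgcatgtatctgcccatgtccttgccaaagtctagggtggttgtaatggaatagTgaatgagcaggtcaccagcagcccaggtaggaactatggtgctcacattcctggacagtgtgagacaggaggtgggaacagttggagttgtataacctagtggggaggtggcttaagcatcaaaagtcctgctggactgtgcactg
Cyp2a4: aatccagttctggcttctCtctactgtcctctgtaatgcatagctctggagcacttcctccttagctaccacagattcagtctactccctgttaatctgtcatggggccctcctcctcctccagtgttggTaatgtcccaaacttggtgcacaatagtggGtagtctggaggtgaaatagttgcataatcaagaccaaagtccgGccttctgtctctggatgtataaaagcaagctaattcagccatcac
Cyp2a5: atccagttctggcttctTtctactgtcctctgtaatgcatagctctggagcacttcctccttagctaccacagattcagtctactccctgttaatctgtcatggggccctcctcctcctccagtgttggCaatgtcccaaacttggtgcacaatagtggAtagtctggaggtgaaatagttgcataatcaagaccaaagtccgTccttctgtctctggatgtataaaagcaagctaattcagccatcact

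Cyp2b9 and Cyp2b13 differed by the substitutions T48C and C104T, counted from 1 at the 5′ end of the Cyp2b9 sequence, and were 99.2% identical over these bases. Cyp2a4 and Cyp2a5 differed by C19T, T131C, G161A and G205T, counted from the 5′ end of the Cyp2a4 sequence, which is offset by 1 base from that of Cyp2a5. Over the same stretch Cyp2a12 and Cyp2a22 were 82.5% identical, and Cyp2b10 was 70% identical to Cyp2b9. A TATA box, searched as TATAAA on both strands, was present in Cyp2a4, Cyp2a5, Cyp2a12 and Cyp2a22 and in 12.4% of the 32851 sequences of this length in the RefSeq table. The C/EBP motif TTGCNNAA was present in Cyp2a4, Cyp2a5, Cyp2b9, Cyp2b10 and Cyp2b13 and in 9.56% of all sequences. The nuclear receptor half-site AGGTCA was present in Cyp2b9 and Cyp2b13 and in 14.0% of all. Neither the STAT5 motif TTCNNNGAA (7.02% of all) nor the HNF6 core ATTGAT (6.72%) occurred in any of the 7 windows. A match in these windows is a description of letters, and no binding was measured.

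In wild-type liver the Cyp2b genes were close to silent. Cyp2b9 was the most abundant of the 7 genes after Cyp2a12 and Cyp2a5 in each library of both groups, so its level differed and its rank did not. The values are FPKM, fragments scaled by gene length and library size, which allows levels of different genes to be set side by side. Cyp2b9 (chromosome 7, 26173411 to 26210661) had 2.48, 0.273 and 0.614 FPKM in the wild-type libraries, in the order of replicates 1 to 3 used throughout, and 113, 73.5 and 44.6 FPKM in the knockout libraries. Every knockout value lay above every wild-type value, and wild-type replicate 1 stood above the other two. The means were 1.12 ± 1.19 and 76.9 ± 34.1 FPKM (SD, n = 3 each), a log2 fold change of 5.24 ± 0.424 (SE) on the log2(FPKM + 1) scale. On the linear scale the ratio of the means was 68.6.

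Cyp2b13 (26061497 to 26096197), the copy of Cyp2b9 upstream in the cluster, was at 0.0149, 0 and 0.0164 FPKM in wild type and at 6.66, 3.42 and 1.35 FPKM in knockout. The wild-type values rest on 1, 0 and 1 reads, so the gene was at the limit of detection there, and a count of 0 in wild-type replicate 2 allows up to 0.0535 FPKM (3 reads). The knockout values rest on 186, 241 and 79 reads. The ratio of read rates, knockout over wild type, was 296, with an exact counting interval of 81.6 to 2454 at 95% that covers counting error only. The fitted log2 fold change of 2.09 ± 0.370 (SE) understates this because 1 FPKM is added before the logarithm.

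Cyp2b10 (25897620 to 25926624), the CAR target, had the smallest level of the Cyp2b genes in knockout liver. It was at 0.0639, 0 and 0.0879 FPKM in wild type and at 0.498, 0.683 and 0.329 FPKM in knockout, from 4, 0 and 5 reads against 13, 45 and 18. The knockout values lay above the wild-type values, with means of 0.0506 ± 0.0454 and 0.503 ± 0.178 FPKM (SD, n = 3 each). The gene stayed below the filter of a mean of 1 FPKM over the libraries, so it was not among the genes fitted, and the count of 0 allows up to 0.0572 FPKM.

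Among the Cyp2a genes, the low copies Cyp2a4 and Cyp2a22 were at least 14.3 times as high in the mean of the knockout libraries, and the ratios of the abundant copies Cyp2a5 and Cyp2a12 were 1.88 and 1.20. Cyp2a4 (26307169 to 26315088), a steroid hydroxylase gene, was at 0.105, 0.0836 and 0.135 FPKM in wild type and at 1.97, 5.27 and 1.42 FPKM in knockout. No knockout value reached down to wild type, and knockout replicate 2 was the highest. Its means were 0.108 ± 0.0257 and 2.89 ± 2.08 FPKM (SD, n = 3 each), a 26.8-fold ratio and a log2 fold change of 1.68 ± 0.320 (SE). An antisense gene, Gm42375, overlaps the start of Cyp2a4 and was listed at 0 in each library.

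Cyp2a22 (26931631 to 26939384, minus strand) was at 0.742, 0.225 and 0.415 FPKM in wild type and at 7.79, 9.41 and 2.60 FPKM in knockout. The groups were again apart, and knockout replicate 3 was the lowest of its group. The means of 0.461 ± 0.261 and 6.60 ± 3.55 FPKM (SD, n = 3 each) gave a ratio of 14.3 and a log2 fold change of 2.26 ± 0.369 (SE).

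Cyp2a5 (26835305 to 26843548) was at 66.8, 95.3 and 58.6 FPKM in wild type and at 204, 136 and 75.7 FPKM in knockout. Here the groups overlapped, since knockout replicate 3 lay below wild-type replicate 2. The means were 73.6 ± 19.3 and 139 ± 64.2 FPKM (SD, n = 3 each), a log2 fold change of 0.82 ± 0.339 (SE). Cyp2a12 (27029081 to 27037375), the most abundant member, was at 272, 247 and 270 FPKM in wild type and at 317, 322 and 309 FPKM in knockout. Its groups did not overlap, but the shift was small, from 263 ± 13.8 to 316 ± 6.54 FPKM (SD, n = 3 each), a log2 fold change of 0.27 ± 0.0864 (SE). It was 0.16 after median-of-ratios scaling of the libraries and 0.32 on the TPM scale.

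**Figure D1:**
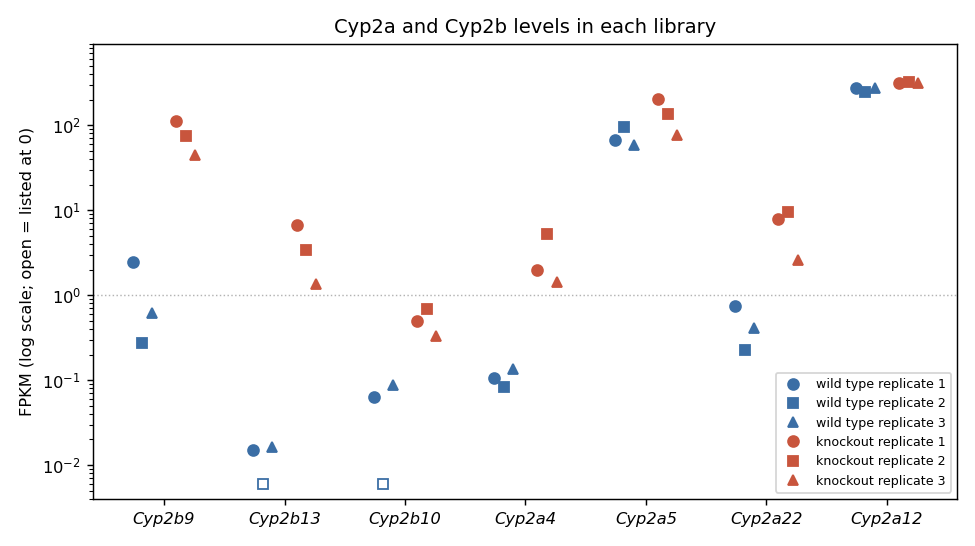
FPKM on a log axis for the 7 genes, with 1 point per library, blue for wild type and red for knockout; shapes give the replicate, open points are values listed at 0 and the dotted line is 1 FPKM. Cyp2a5 is the gene whose groups overlap, and Cyp2b9 goes from at most 2.48 FPKM in wild type to at least 44.6 FPKM in knockout.

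Of the 7 genes, 6 passed the filter, and Cyp2b13, Cyp2a4 and Cyp2a22 passed it through their knockout values alone. In the limma fit across all 10633 genes, 4 of the 6 (Cyp2b9, Cyp2b13, Cyp2a4 and Cyp2a22) were past the call rule of an adjusted p under 0.05 with higher values in knockout, and none with lower values. Over all genes tested, 5.30% were called higher and 1.60% lower, 6.90% in all. Knockout values lay above all wild-type values for 5 of the 6 and for 23.4% of all genes tested, and below them for none of the 6 and 7.81% of all. Since the members were chosen with this contrast known, nothing is read from these counts, here or in the refits below. Cyp2b9 kept its call with any 1 library left out, and the number of members called fell to 1 when wild-type replicate 2 or knockout replicate 2 was left out and to 2 when wild-type replicate 1 or 3 was. It was 3 and 4 when knockout replicate 1 or 3 was left out. The filter was applied again in each of these fits. Cyp2a4 fell below it without knockout replicate 2 and Cyp2b13 without knockout replicate 1, so they were not tested there. With no filter on low values the number of members called was 1, and on the TPM scale it was 5, with Cyp2a12 added. The log2 fold changes of all 7 genes stayed above 0 under each scaling tried and with any 1 library left out. For all but Cyp2a5 the groups did not overlap, so leaving out a library could not change the sign.

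The knockout libraries differed among themselves, and not in the same way for every gene. Cyp2b9, Cyp2b13 and Cyp2a5 were highest in knockout replicate 1 and lowest in replicate 3, with ratios of the highest to the lowest library of 2.52, 4.94 and 2.69. Cyp2a4, Cyp2a22 and Cyp2b10 were highest in replicate 2, with ratios of 3.72, 3.61 and 2.08. Cyp2a12 varied by a ratio of 1.04 in knockout and 1.10 in wild type. Knockout replicate 1 was the shallowest library, with 12411220 reads recovered against 25532813 to 31810109 in the others, and its Cyp2b9 value rests on 3283 reads. The log2 levels of Cyp2b9 and Cyp2b13 had a Pearson correlation of 0.94 over the 6 libraries, and those of Cyp2a4 and Cyp2a5 one of 0.68. Over all pairs of fitted members the values ran from 0.59 (Cyp2a5 with Cyp2a12) to 0.97 (Cyp2b9 with Cyp2a12), so the copies did not stand out. These correlations describe 6 points that share the group difference.

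The order of levels differed between the groups. In wild type it ran Cyp2a12, Cyp2a5, Cyp2b9, Cyp2a22, Cyp2a4, Cyp2b10 and Cyp2b13 from the highest mean FPKM to the lowest. The ranges of the neighbours Cyp2b9 and Cyp2a22, of Cyp2a4 and Cyp2b10, and of Cyp2b10 and Cyp2b13 overlapped there. In knockout it ran Cyp2a12, Cyp2a5, Cyp2b9, Cyp2a22, Cyp2b13, Cyp2a4 and Cyp2b10. Of these neighbours, Cyp2a5 and Cyp2b9 overlapped, as did Cyp2a22 and Cyp2b13, and Cyp2b13 and Cyp2a4.

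Summed over the 7 genes, the wild-type libraries had 342, 343 and 329 FPKM and the knockout libraries 651, 550 and 435. The Cyp2b share of these sums was 0.747%, 0.0798% and 0.218% in wild type and 18.4%, 14.1% and 10.6% in knockout, almost all of it Cyp2b9. Of all FPKM of Cyp2 family genes, the members made up 3.83% to 4.27% in wild type and 5.48% to 6.66% in knockout.

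**Figure D2:**
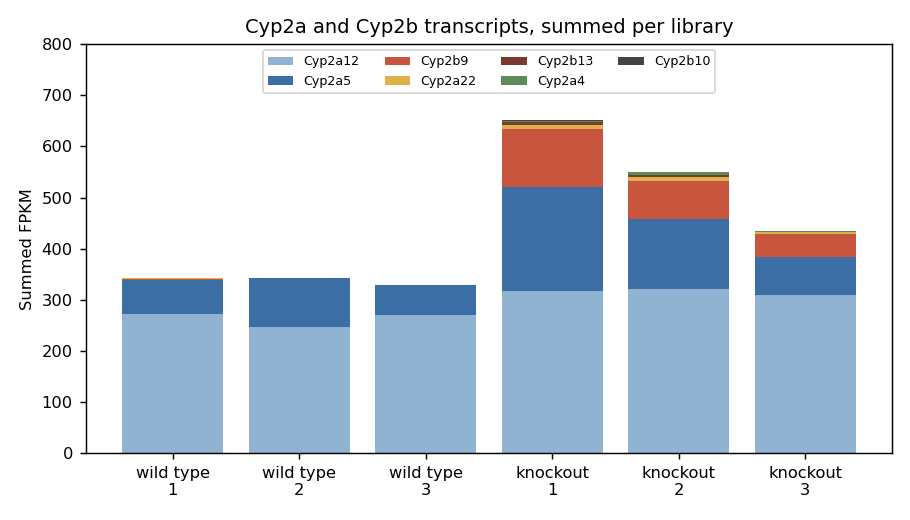
Stacked FPKM of the 7 genes in each library, starting at 0. The wild-type bars, 329 to 343 FPKM high, hold almost only Cyp2a12 and Cyp2a5, and the knockout bars, 435 to 651 FPKM high, add a visible Cyp2b9 layer.

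Because the copies resemble each other, reads of an abundant copy could be counted for a rare one, and the sources used here do not say how reads with several matches were handled. In their coding bases Cyp2a4 and Cyp2a5 were 98.4% identical, Cyp2a12 and Cyp2a22 97.0%, Cyp2b9 and Cyp2b13 92.7%, and Cyp2b10 86.2% to Cyp2b9 and 87.2% to Cyp2b13 (GENCODE vM21 transcripts). Of the 50-base windows of the Cyp2a4 transcript, 36.1% occurred unchanged in Cyp2a5 and 11.3% in the pseudogene Cyp2a21-ps. Of those of Cyp2a22, 25.7% occurred in Cyp2a12. The Cyp2b9 transcript was the most distinct of the pairs, with 10.8% of windows in Cyp2b13 and 3.83% in the pseudogene Gm45225. Cyp2b13 had 13.8% of its windows in Gm45225 and 10.8% in Cyp2b9.

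The share of the rare copy in the reads of its pair was set beside this. Cyp2a4 took 0.157%, 0.0876% and 0.229% of the Cyp2a4 and Cyp2a5 reads in wild type and 0.957%, 3.73% and 1.84% in knockout, and none of the exact 95% intervals of the groups overlapped (0.472% at most in wild type, 0.704% at least in knockout). Cyp2a22 took 0.363%, 0.122% and 0.205% of the Cyp2a22 and Cyp2a12 reads in wild type and 3.17%, 3.76% and 1.11% in knockout, again with intervals apart. Both shares were higher in each knockout library than in any wild-type library. The share of Cyp2b13 in the Cyp2b13 and Cyp2b9 reads was 5.36%, 4.27% and 2.81% in knockout. In wild type it rested on 174, 16 and 40 reads of both genes, with intervals that reach 3.16%, 20.6% and 13.2%. The interval of wild-type replicate 1 lay below those of knockout replicates 1 and 2 (from 4.64% and 3.76%) and overlapped that of knockout replicate 3 (from 2.23%), whereas the intervals of wild-type replicates 2 and 3 overlapped all of the knockout ones. With reads pooled over the libraries of a group, the ratio of read rates was 296 for Cyp2b13 (81.6 to 2454) and 58.6 for Cyp2b9 (51.4 to 67.2). Wild-type replicate 1 held 173 of the 228 wild-type reads of Cyp2b9, and Cyp2b13 had 2 reads in wild type. The copies are therefore not ranked by these ratios. The intervals cover counting error only, and neither the differences among libraries nor how reads with several matches were assigned. Since the members were chosen with this contrast known, nothing is read from intervals that lie apart.

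**Figure D3:**
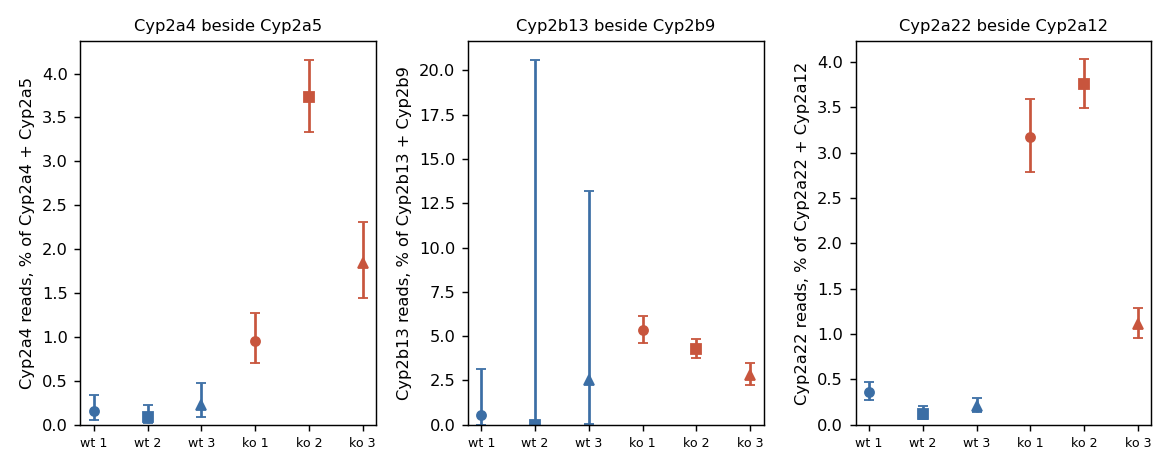
Percent of the reads of each near-identical pair that were counted for the rarer copy, per library, with exact 95% intervals; blue is wild type, red is knockout, and each panel has its own axis from 0. The Cyp2a4 and Cyp2a22 shares are at most 0.363% in each wild-type library and between 0.957% and 3.76% in knockout, and the wild-type intervals of Cyp2b13 are wide.

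The 7 genes lie within 1.14 Mb of chromosome 7 (GENCODE vM21, GRCm38), 72.5 Mb from Arrb1 on the same chromosome, and are therefore neighbours and not independent positions in the genome. Of the 17 other annotated genes between their starts, 13 were listed at 0 in each library, among them the subfamily members Cyp2b19 and Cyp2b23, and none passed the filter. The highest of them was the pseudogene Cyp2a21-ps, with 0.307, 0.592 and 0.208 FPKM in the wild-type libraries, 1.08, 0.876 and 0.459 in the knockout libraries, and an overlap of the groups. Cyp2g1, a gene of the olfactory mucosa, was at 0.324, 0.271 and 0.0356 FPKM in wild type and at 0, 0 and 0.0185 FPKM in knockout, lower in each knockout library. Of the 39 tested genes within 1 Mb of the cluster, limma called 1 higher, Gsk3a, and none lower, with a median log2 fold change of 0.21 beside 0.07 over all genes tested. Gsk3a, a kinase gene, was at 18.3 ± 0.915 and 24.1 ± 1.35 FPKM (SD, n = 3 each; limma, adjusted p = 0.0390), and its call was lost on omitting any 1 of the 6 libraries (adjusted p = 0.0537 to 0.135) and after median-of-ratios scaling (0.0595). The nearest tested genes on either side, Axl and the pulmonary-type cytochrome Cyp2f2, were not called (limma, adjusted p = 0.273 and 0.424).

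**Figure D4:**
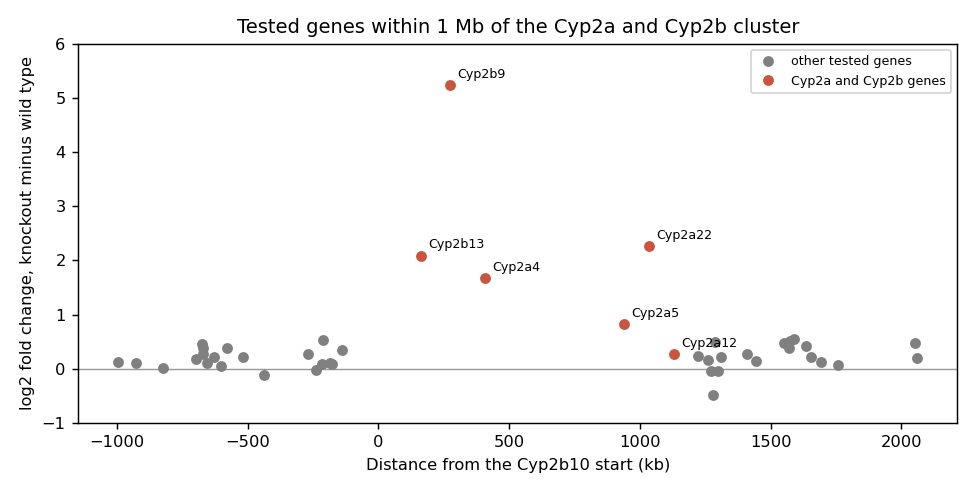
log2 fold change, knockout minus wild type, of each tested gene within 1 Mb of the cluster against its distance from the Cyp2b10 start in kb; red points are Cyp2a and Cyp2b genes and grey points other genes. The grey points lie between -0.48 and 0.54, and Cyp2b9 is at 5.24.

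The regulators known to act on these genes were looked at next. The gene lists in this and the following paragraphs were, like the members, chosen with earlier results of these data known. Their counts are given as a description. Nr1i3, which encodes CAR, was at 43.2, 42.1 and 30.4 FPKM in wild type and at 51.8, 36.1 and 24.9 FPKM in knockout, with overlapping groups (limma, adjusted p = 0.878). Nr1i2, which encodes the related receptor PXR, was at 25.1 ± 2.47 and 32.2 ± 3.05 FPKM (SD, n = 3 each) and was not called (limma, adjusted p = 0.0943). Of 9 tested receptors and partners, limma called 1 higher, Ppara, the receptor for fatty acids, from 38.8 ± 5.72 to 61.6 ± 6.94 FPKM (SD, n = 3 each; adjusted p = 0.0275). That call was lost on omitting replicate 2 or 3 of either group (adjusted p = 0.0587 to 0.102). Without wild-type replicate 3, 1 gene of the list was called lower.

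Of the growth hormone, STAT5 and liver factor genes, 1 of 23 tested was called higher and 1 lower (median log2 fold change -0.05 beside 0.07 over all genes). Stat5b, the growth hormone effector, was at 13.8 ± 1.22 and 16.1 ± 0.682 FPKM and Hnf4a at 189 ± 16.3 and 198 ± 21.0 FPKM (SD, n = 3 each; limma, adjusted p = 0.213 and 0.760). Ghr, the growth hormone receptor gene, was at 139 ± 13.6 and 111 ± 3.30 FPKM (adjusted p = 0.0878). Bcl6 and Cux2 encode repressors of sex-biased genes. Bcl6 had 17.3, 17.1 and 6.48 FPKM in the wild-type libraries and 4.23, 18.5 and 7.13 in the knockout libraries (limma, adjusted p = 0.560), and the female-specific Cux2 stayed at or below 0.213 FPKM in each library. The genes called were Stat5a (higher, limma adjusted p = 0.0232) and Foxa3 (lower, adjusted p = 0.0427). The Stat5a call was lost without knockout replicate 2 (0.0897) or 3 (0.0586) or wild-type replicate 2 (0.0926) or 3 (0.0583), and the Foxa3 call with any library but knockout replicate 1 left out (0.073 to 0.138).

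Other targets of CAR and PXR moved in both directions. Of the 34 tested outside the members, limma called 9 higher and 1 lower (median log2 fold change 0.16). Cyp3a11, the main drug-metabolising CYP3A gene, rose from 168 ± 49.2 to 665 ± 177 FPKM, and Abcc3, an efflux transporter gene, from 43.3 ± 7.90 to 102 ± 10.2 FPKM (SD, n = 3 each; limma, adjusted p = 0.00575 for both). Gsta2 rose from 2.25 ± 0.432 to 7.63 ± 1.71 FPKM and the bilirubin-conjugating Ugt1a1 from 53.8 ± 2.71 to 87.4 ± 4.18 FPKM (adjusted p = 0.00575 and 0.00594). Cyp2c54 was the 1 lower gene, from 125 ± 31.2 to 39.0 ± 17.6 FPKM (adjusted p = 0.0257). Its call was lost without knockout replicate 3 (0.0575) or wild-type replicate 1 (0.0605), 2 (0.101) or 3 (0.0528), and 5 genes of the list were called lower without knockout replicate 1. The higher count lay between 6 and 12 with 1 library left out.

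Of the 32 listed female-biased liver genes outside the members, 15 were tested, of which limma called 5 higher and none lower (median log2 fold change 0.48); 3 of the 15 passed the filter through 1 group alone. Cd36, a fatty acid transporter gene, and Slc22a27, an organic anion transporter gene, kept their calls with any 1 library left out. Cd36 rose from 19.1 ± 5.81 to 96.6 ± 10.3 FPKM (limma, adjusted p = 0.00176). Slc22a27 rose from 0.334 ± 0.167 to 4.48 ± 1.35 FPKM (SD, n = 3 each; limma, adjusted p = 0.00354). Rtn4, Cyp2c39 and Abcd2 were the other called genes (adjusted p = 0.0215, 0.0323 and 0.0499), and 2 genes were left as called when any wild-type library or knockout replicate 2 was omitted. Of 30 tested male-biased genes, several of them Mup copies, 14 were called lower and none higher (median -1.44). Hsd3b5, a steroid dehydrogenase gene, fell from 158 ± 35.5 to 6.72 ± 5.60 FPKM and Mup21, a major urinary protein gene, from 92.5 ± 19.9 to 18.0 ± 2.49 FPKM (SD, n = 3 each; limma, adjusted p = 0.00554 and 0.00176). That count was 6 without knockout replicate 1, 4 without knockout replicate 2 and 7, 4 and 8 without wild-type replicates 1, 2 and 3, and 1 gene was called higher without knockout replicate 1. The Y-linked genes Ddx3y (9.21 to 15.8 FPKM), Eif2s3y (10.7 to 17.1), Kdm5d (1.52 to 2.42) and Uty (1.20 to 2.34) were present in each, and Xist was listed at 0 in 5 libraries and at 0.00200 FPKM in wild-type replicate 2.

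**Figure D5:**
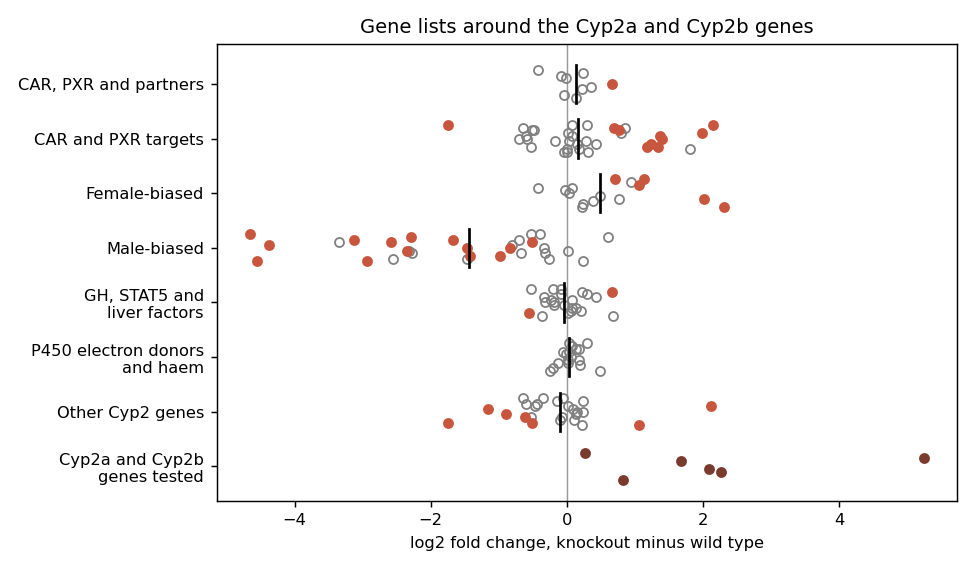
log2 fold change, knockout minus wild type, for each tested gene of the lists; filled red points passed the limma call rule, open points did not, black bars are list medians, and brown points are the Cyp2a and Cyp2b genes, shown without a call. The male-biased median is -1.44, while the other medians lie between -0.10 and 0.48.

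The rest of the Cyp2 family did not share one direction. Of 43 other Cyp2 genes, 25 were tested, of which limma called 2 higher, Cyp2c38 and Cyp2c39, and 5 lower, Cyp2c70, Cyp2c54, Cyp2c44, Cyp2r1 and Cyp2d9 (median log2 fold change -0.10). Cyp2c38 went from 8.34 ± 3.22 to 38.8 ± 8.16 FPKM and Cyp2c70, a bile acid hydroxylase gene, from 254 ± 24.2 to 113 ± 7.44 FPKM (SD, n = 3 each; limma, adjusted p = 0.00554 and 0.00209). Both kept their calls with any 1 library left out. Omitting any wild-type library or knockout replicate 2 left 1 gene called higher. The lower count became 2, 1 and 2 on omitting wild-type replicates 1, 2 and 3, and 3 on omitting knockout replicate 2.

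The genes whose log2 levels most resembled those of a member over the 6 libraries (highest Pearson correlation among the genes tested) are given as a description. They were Pcsk6, Acaa1a and Pnldc1 for Cyp2b9 (0.998, 0.997 and 0.997) and Slc11a2, Emc10 and Rasl11b for Cyp2b13 (0.996, 0.995 and 0.994). For Cyp2a4 they were C3ar1, Hbb-b2 and Col1a2 (0.999, 0.998 and 0.996), and for Cyp2a22 Gstt1, Ncbp2 and Hadh (0.998, 0.996 and 0.996). For Cyp2a5 they were Cyp3a25, Zkscan17 and Riok1 (0.992 for the first), and for Cyp2a12 Xrcc3, BC026585 and Acyp2 (each 0.998). With 6 points in 2 groups, many genes reach such values.

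The 15 hepatocyte markers in the table summed to 59416 to 68863 FPKM in wild type and 55486 to 63745 in knockout, with none at 0 in all libraries. Of these 15, limma called 3 lower in knockout, Serpina1a, Cps1 and Tat, and none higher (median log2 fold change -0.33). Markers of other liver cells were also present. The sum of 14 macrophage markers was 274 to 288 FPKM in wild type and 314 to 456 in knockout, and that of 10 stellate cell markers 101 to 123 and 118 to 177. The sums were 119 to 141 and 130 to 156 FPKM for 10 endothelial markers, 36.0 to 68.3 and 41.9 to 105 for 9 cholangiocyte markers, 79.5 to 127 and 68.9 to 171 for 9 erythroid markers and 2.58 to 3.67 and 1.94 to 6.25 for 10 lymphocyte markers. Among them limma called Gpnmb higher and Vsig4 lower of 13 tested macrophage markers. It called higher Col1a1 and Col1a2 of 10 stellate, Pecam1 and Lyve1 of 10 endothelial and Hbb-b1 and Hbb-b2 of 6 erythroid markers. The other erythroid markers tested had no positive log2 fold change, and the median of the 6 was -0.41. Hbb-b2 was listed at 0 FPKM in each wild-type library and averaged 4.45 ± 4.28 FPKM in knockout (SD, n = 3). None of 5 cholangiocyte markers was called, and no lymphocyte marker passed the filter. None of these markers was at 0 in all 6 libraries. Their part in the levels of the cytochromes was not tested, and in bulk RNA fewer cells of a type and less RNA per cell cannot be told apart. Arrb1 was at 3.86, 22.7 and 16.9 FPKM in the wild-type libraries and at 0.918, 1.05 and 1.16 in the knockout libraries (limma, adjusted p = 0.0275). That call was lost on omitting wild-type replicate 2 (adjusted p = 0.0916) or 3 (0.0700) or any 1 knockout replicate (0.0596 without replicate 1, 0.0669 without replicate 3, and higher without replicate 2).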

How the data were processed

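Expression was read from the FPKM values the authors deposited, 1 value per gene symbol for 6 libraries. HISAT2, Bowtie 0.12.2, mm10 and mm8 are named, without their roles, per the submitters' processing notes. The sources used here do not give the annotation, the strand setting or how reads matching several genes were handled. Genes were matched by symbol to GENCODE vM21 (GRCm38, which corresponds to mm10).

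Groups came from the sample titles. limma 3.58.1 (R 4.3.3; lmFit, eBayes with trend, two-sided) was run on log2(FPKM + 1) for the 10633 genes that averaged 1 FPKM or more over the libraries, with Benjamini-Hochberg adjustment over them, and was tested on simulated data. Nothing in the labels ties a library to a separate animal, so the p-values reflect how much these libraries vary, which may be technical. Fold changes on the log2(FPKM + 1) scale understate the change of low genes.

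FPKM values are whole multiples of 1 read, which gave whole reads (within 0.001 reads at low counts) for 17547 of 17549 genes above 0 in at least 4 libraries. A check took 1010 of the solved genes and searched only low read counts. Deliberately wrong step sizes gave whole reads for 0 of them and the right ones for 557. The right steps fell short of 1010 there because of the lower limit on the counts searched. The 17547 genes held 12411220 to 31810109 reads per library. Intervals are exact Clopper-Pearson intervals at 95%, and the ratio of read rates uses the same method.

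Sequences before gene starts came from RefSeq (GRCm38.p6), matched for all 7 genes by symbol, and transcripts were aligned with Biopython 1.88. No protein sequence was used here. Other tools were Python 3.11.15, pandas 2.3.3, scipy 1.17.1 and matplotlib 3.10.9.

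The members and lists were chosen with earlier results of these data known. Genes named are the members, Arrb1, the regulators and sex-linked genes given, up to 4 genes with the smallest p from each list, the other Cyp2 genes and the nearest genes of the cluster and the 3 genes most correlated with each member. Genes that make up a count of 5 or fewer, the marker genes called, and Ghr, Gm42375 and Gm45225, were named after their values were seen. As alternatives, the fit was repeated on TPM, after median-of-ratios scaling, with a pseudocount of 0.1, without a filter or with one at 5 FPKM, with a replicate block, by voom on recovered reads and with each library omitted in turn.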

Additional observations from a re-analysis of the deposited data

How the results depend on the processing

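The log2 fold changes of the 7 genes moved with the pseudocount and the scale, since most of them are low in wild type, and none turned. For all but Cyp2a5 the groups did not overlap, so another pseudocount or a left-out library could not change the sign. With a pseudocount of 0.1 the log2 fold changes were 3.63 for Cyp2a4, 3.50 for Cyp2a22, 6.35 for Cyp2b9, 2.01 for Cyp2b10 and 4.88 for Cyp2b13. On the TPM scale they were 2.41 for Cyp2a4, 0.92 for Cyp2b10 and 2.99 for Cyp2b13. With voom on recovered reads they were 4.52 for Cyp2a4, 3.72 for Cyp2a22, 6.50 for Cyp2b9 and 7.36 for Cyp2b13. Median-of-ratios scaling gave 0.16 for Cyp2a12. With 1 library left out, Cyp2b9 ran from 4.92 to 5.67, Cyp2b13 from 1.67 to 2.53, Cyp2a4 from 1.28 to 1.96, Cyp2a22 from 1.96 to 2.73, Cyp2a5 from 0.49 to 1.20, Cyp2a12 from 0.22 to 0.29 and Cyp2b10 from 0.43 to 0.60. The count of members called higher, 4 as reported, was 5 on the TPM scale, where Cyp2a12 was added with a log2 fold change of 0.32, 1 with no filter, 1 with the filter at 5 FPKM, where 4 members were not tested, and 1 to 4 with 1 library left out. Cyp2b13 without knockout replicate 1 and Cyp2a4 without knockout replicate 2 fell below the filter and were not tested.

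Over all genes, the 564 higher and 170 lower became 88 and 58 with no filter, 990 and 172 on the TPM scale, 346 and 232 after median-of-ratios scaling and 280 and 122 with the replicate number as a block. They were 94 to 422 and 54 to 119 with 1 library left out. Calls were higher for 76.8% as reported, 59.9% after median-of-ratios scaling and 60.3% with no filter. Deviations of same-numbered libraries correlated at 0.17, -0.06 and 0.10, so the numbers were not taken to pair the libraries.

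With no filter, CAR and PXR targets had 4 higher and 0 lower, female-biased genes 2 higher, male-biased genes 3 lower, other Cyp2 genes 1 higher and 1 lower, and the receptor list, the growth hormone list (either way) and the region 0. With the filter at 5 FPKM, female-biased genes had 2 higher, other Cyp2 genes 1 and the region 2. With the replicate block, the receptors had 0 higher, CAR and PXR targets 0 lower, the growth hormone list 0 higher and 0 lower, other Cyp2 genes 3 lower and the region 0. On the TPM scale the receptors had 2 higher and the region 5. The region had 4 with voom and 0 after median-of-ratios scaling. With 1 library left out, counts of higher genes ran from 0 to 1 for receptors, growth hormone genes, the region, male-biased genes and electron donors, from 2 to 5 for female-biased genes and from 1 to 2 for other Cyp2 genes. Counts of lower genes ran from 0 to 5 for CAR and PXR targets, 0 to 1 for receptors and growth hormone genes, 4 to 16 for male-biased genes and 1 to 7 for other Cyp2 genes. The cause of these shifts was not tested. Depth limits Cyp2b13 and Cyp2b10 in wild type, with 2 and 9 reads over the 3 libraries.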

Other observations

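The genes that supply the cytochromes with electrons and haem showed no call. Of 17 tested, limma called 0, with 3 at an unadjusted p under 0.05 and 0 by voom on recovered reads, and the median log2 fold change was 0.03. Por, the P450 reductase gene, was at 43.5, 74.9 and 46.4 FPKM in wild type and at 71.5, 57.4 and 38.8 FPKM in knockout, with overlapping groups (limma, adjusted p = 0.963). Pgrmc1, a haem-binding partner of cytochromes, was at 619 ± 32.4 and 758 ± 30.4 FPKM, and Ppox, an enzyme of haem synthesis, at 6.22 ± 0.232 and 5.08 ± 0.159 FPKM (SD, n = 3 each; adjusted p = 0.110 and 0.113). Without knockout replicate 3, 1 gene of the list was called higher.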
